A study of Mus musculus with 4 samples.

Results

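Plasmacytoid dendritic cells (pDCs) of mouse bone marrow were picked from 2 single-cell libraries as barcodes with 200 or more genes, at most 10% mitochondrial UMIs, at least 2 UMIs of Siglech, at least 1 UMI of Bst2 and at most 1 UMI of Cd79a. This gate held 445 barcodes, 233 from the KO and 212 from the WT library, of 18817 bone marrow barcodes that passed the first 2 limits and of 43059 barcodes in all 4 libraries of the series. Siglech encodes a lectin receptor of mouse pDCs, Bst2 the PDCA-1 antigen (tetherin), and Cd79a the B cell receptor chain that marks the B lineage. A barcode is 1 droplet, and a UMI counts 1 captured transcript.

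The KO animals carried S100a8 fl/fl with Vav-Cre+/-, which deletes the gene across the blood-forming system. The WT animals carried the same floxed alleles without the Cre (S100a8 fl/fl, Vav-Cre-/-), so floxed S100a8 was common to both groups. Sorted CD45+ cells came from marrow of tumor-free, untreated mice, with 3 mice pooled into each library. The labels used here give no age. The other 2 libraries were CD45+ cells from LLC tumors (a mouse Lewis lung carcinoma line) of the same genotypes, also with 3 mice pooled in each. With 1 library a group and no label that ties barcodes to mice, no difference between genotypes could be tested, and every 95% interval below covers counting error only. "Higher" and "lower" therefore describe these 2 libraries.

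pDCs are the main source of type I interferon after their endosomal Toll-like receptors bind viral nucleic acid. They arise in the bone marrow from dividing dendritic cell and lymphoid progenitors, and the transcription factor Tcf4, with Spib, Runx2, Irf8 and Bcl11a, maintains the lineage. Interferon acts back on the same cells through the receptor chains Ifnar1 and Ifnar2 and a complex that holds Stat2 and Irf9. That complex binds the interferon-stimulated response element in the promoters of antiviral genes. S100a8 and S100a9 together form calprotectin, an abundant neutrophil protein and not a pDC product.

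The response element bears on the interferon response genes described below, and 3 promoter stretches show what it looks like in 2 of those genes and in the gate gene Bst2. They are RefSeq sequences (build GRCm38.p6), each 100 bases long and lying before the gene's start in the RefSeq annotation. Capitals mark every match on either strand to the core of the element, GAAA, any 2 bases and GAAA again, where overlapping matches run together.
Stat2, chr10:128270248-128270347, + strand: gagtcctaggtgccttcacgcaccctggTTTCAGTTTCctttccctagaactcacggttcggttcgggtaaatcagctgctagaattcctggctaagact
Isg15, chr4:156200836-156200935, - strand: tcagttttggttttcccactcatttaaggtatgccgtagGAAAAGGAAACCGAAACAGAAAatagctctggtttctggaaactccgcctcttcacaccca
Bst2, chr8:71537545-71537644, - strand: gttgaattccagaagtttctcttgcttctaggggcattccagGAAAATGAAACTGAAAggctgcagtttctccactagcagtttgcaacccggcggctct
Stat2 held 1 match, Isg15 held 3 overlapping ones, and Bst2 held 2. Irf7, also among the interferon response genes lower in KO, was looked at too. It held none in the 250 bases before its start and is not printed. Of 27025 genes with a promoter entry, 936 (3.46%) held a match in the 250 bases before the start. Among the measured interferon response genes described below, 27 of 32 had an entry and 7 of those held a match. A match describes these letters and is not a measured binding site.

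The targeted gene was checked first. S100a8 (chr3:90668978-90670035, GRCm38) gave 7 UMIs in the whole KO marrow library, 0.135 CPM (UMIs of a gene scaled to 1000000 UMIs of the barcodes summed), and 2301866 UMIs or 69952 CPM in the WT library. In the pDC gate the KO library had 0 S100a8 UMIs, which allows up to 2.10 CPM, and the WT library had 13080 UMIs or 13522 CPM. WT B-lineage barcodes (Cd79a at least 2, Siglech 0), which should lack the gene, stood higher at 20124 CPM, and the level in the gate is not read as expression by pDCs. S100a9 was likewise at 20697 in KO and 12534 CPM in WT pDC barcodes, against 22176 and 17250 CPM in the B-lineage barcodes. Most of it sat in few barcodes: 29 of 233 KO (12.4%) and 16 of 212 WT members (7.55%) drew 3% or more of their UMIs from S100a9, and these held 89.4% and 90.7% of the gate's S100a9 UMIs.

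The 2 marrow libraries differed in depth and makeup. KO members had a median of 4606 UMIs, between 1029 and 32638, and WT members 3793, between 818 and 23286. They summed to 1430363 and 967296 UMIs. Mitochondrial UMIs took a median of 2.54% and 3.22%. The libraries shared 33 barcodes, but no gated barcode was in both gates. The nuclear RNA Malat1 was at 10054 in KO and 16903 CPM in WT members but at 11961 and 11166 CPM in the other barcodes. Without dividing barcodes it was still 0.641 times the WT level (0.625 to 0.658). Its part in the differences below was not tested.

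The barcodes carried the pDC markers they were not chosen by. Ccr9, a chemokine receptor that guides pDCs to the gut, was at 587 in KO and 801 CPM in WT members and at 2.30 and 4.82 CPM in all other barcodes. Cox6a2, a subunit of the respiratory chain known from muscle and pDCs, was at 864 and 982 CPM in members and 5.03 and 6.68 CPM elsewhere. At a common depth of 1000 UMIs, Ccr9 was seen in 48.9% of KO and 51.2% of WT members (75.1% and 79.7% without thinning). In B-lineage barcodes thinned alike it was seen in 0.111% and 0.0579% (0.415% and 0.364% without thinning; median depths 2092.5 and 1765.5 UMIs). All 4 markers were present in 161 KO (69.1%) and 149 WT members (70.3%), and every member had at least 2 because the gate asks for them.

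Genes were also ranked by their level over the rest of the marrow, taking the smaller of the KO and WT ratios. A high rank therefore requires a high ratio in both libraries. The first 5 after Siglech were Klk1, the unnamed protein gene Gm21762, Ccr9, Cox6a2 and Cd209d. Klk1, a kallikrein protease, was at 244 and 471 CPM against 0.180 and 1.39 CPM in the rest. The T cell co-receptor Cd4, known on mouse pDCs, was at 132 and 204 CPM against 1.5 and 1.73 CPM, and the inhibitory receptor Lag3 at 150 and 238 CPM against 3.1 and 4.09 CPM. These contrasts describe the gate and are no test, since the gate chose the cells.

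**Figure D1:**
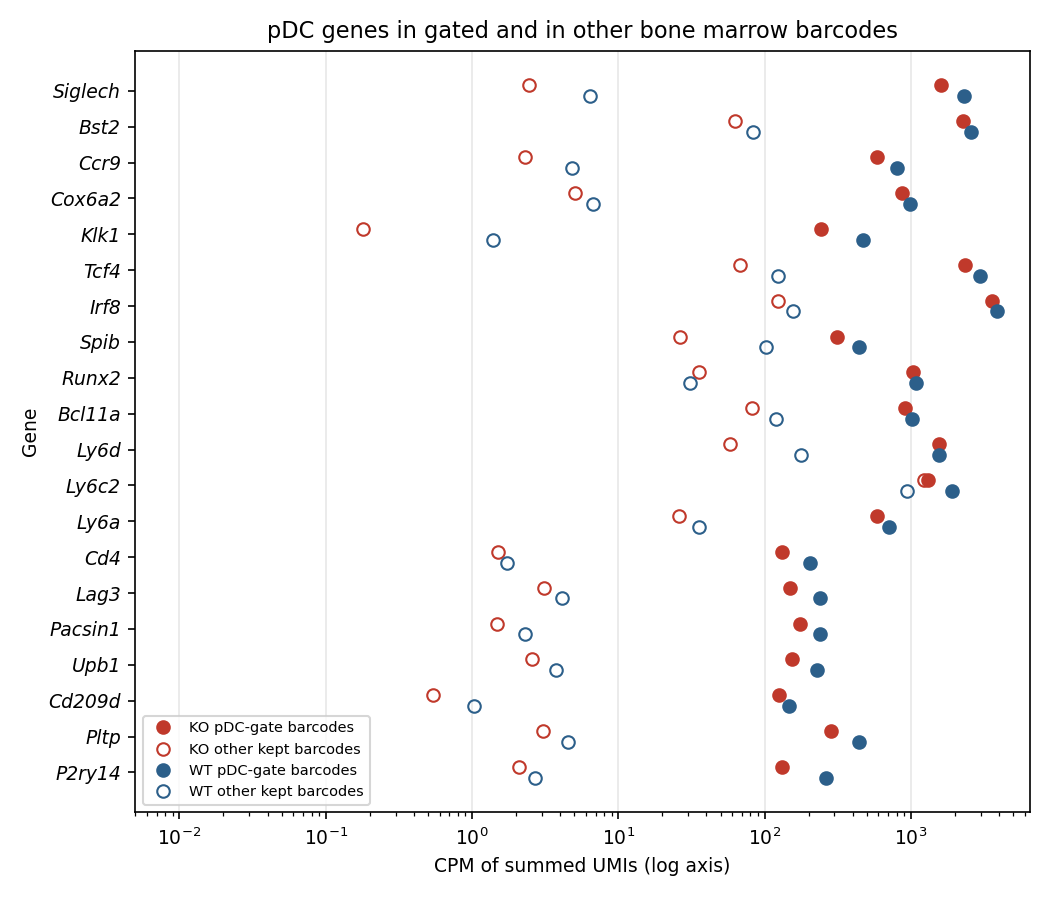
Levels of 20 pDC genes as CPM of summed UMIs on a log axis, in gated barcodes (filled) and in all other kept barcodes (open) of the KO (red) and WT (blue) marrow libraries, 1 library each. Filled points lie to the right of open ones, least so for Ly6c2 in KO (1300 against 1231 CPM), and most KO filled points lie left of the WT ones.

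Markers of most other cells summed lower in the gate than in the rest, and some sat mainly in a few barcodes. The 13 B-lineage markers summed to 88.1 in KO and 123 CPM in WT members against 763 and 1981 CPM in the rest, with Pax5 and Fcmr at 0 in KO and Ms4a1 at 0 in WT. The 10 T cell markers summed to 41.9 and 67.2 CPM, with Cd3d, Cd3e, Trac, Trbc1, Trbc2 and Bcl11b at 0 in KO and Trbc1 at 0 in WT. The 15 neutrophil markers summed to 33868 and 21400 CPM against 159628 and 111674 CPM in the rest, between 708 and 324408 CPM per barcode in KO and between 0 and 195076 CPM in WT. Conventional dendritic cell markers were above the rest, at 1995 against 1034 CPM in KO and 2176 against 895 CPM in WT. Much of this sum was Cst3, at 892 and 931 CPM, and Flt3, at 309 and 324 CPM. Fscn1 was at 0 in KO, and Xcr1 and Batf3 were at 0 in WT. Stem and progenitor markers were above it in KO, at 403 against 300 CPM, and below it in WT, at 310 against 450 CPM. A single KO barcode held 98.5% of the gate's Prss34, a basophil protease, and a single WT barcode held 87.3% of its Hbb-bs, an adult globin. In KO, 5 barcodes held 96.5% of the 733 UMIs of the neutrophil elastase Elane. Doublet scoring marked 30 KO and 29 WT members. The part of such RNA in the differences between the libraries was not tested.

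At the gate's lower Siglech limit, markers were lower outside than inside in both libraries. At exactly 2 Siglech UMIs, the KO library had 12 members at 150 CPM of Ccr9 and 355 CPM of Cox6a2, and 21 barcodes at 1 UMI, outside the gate, had 126 CPM of each. In WT, 13 members at 2 UMIs had 108 and 382 CPM, and 16 barcodes at 1 UMI had 19.2 and 28.7 CPM. At the other limit, 9 KO and 14 WT barcodes with 2 or more Cd79a UMIs met the rest of the gate, and Cd79b was seen in 8 and 13 of them.

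pDC barcodes made up 2.15% of kept KO barcodes (1.88 to 2.44%) and 2.66% of kept WT barcodes (2.32 to 3.04%), a ratio of 0.806 (0.671 to 0.969). The order turned when neutrophils were set aside. Among barcodes with under 3% S100a9 UMIs, members were 204 of 3210 in KO, 6.36% (5.54 to 7.26%), and 196 of 3951 in WT, 4.96% (4.3 to 5.68%), a ratio of 1.28 (1.06 to 1.55). The neutrophil gate (S100a9 at least 3% of UMIs, Siglech 0) held 7597 KO and 3978 WT barcodes, so the direction of the pDC share depends on what it is divided by.

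A subset of the gate was dividing. Members with 3 or more UMIs over 10 proliferation genes (Mki67, Top2a, Cdk1, Birc5, Cenpf, Pclaf, Rrm2, Tyms, Ube2c and Ccna2) numbered 57 of 233 in KO, 24.5% (19.1 to 30.5%), and 28 of 212 in WT, 13.2% (8.96 to 18.5%). Thinning each barcode to 2000 UMIs left out 5 KO and 25 WT members. The shares were then 50 of 228, 21.9% (16.7 to 27.9%), and 27 of 187, 14.4% (9.74 to 20.3%), and these intervals overlap. In other cells, B-lineage barcodes met the same minimum in 23.2% (KO) and 24.3% (WT), and monocyte barcodes in 51.6% and 44.3%. None of the 10 transcripts was seen in 138 KO and 134 WT members, and the part of free RNA in these calls was not tested. Near the limit, at 2 to 4 UMIs, lay 10 KO and 12 WT members.

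The 2 cell cycle lists were higher in the KO gate throughout. All 28 measured S phase genes lay above the WT level, with a median log2 ratio of 0.56, and 12 were past 1.5-fold. All 44 measured G2 and M phase genes did too, with a median of 0.69 and 32 past 1.5-fold. Over all 4132 measured genes (100 or more UMIs over both gates) the median was 0.02, and 5.11% were past 1.5-fold higher in KO. Ube2c, an enzyme of mitotic exit, was at 272 in KO and 121 CPM in WT. Top2a, the topoisomerase of dividing cells, was at 606 and 370 CPM, and the DNA clamp factor Pclaf at 561 and 343 CPM. Some of these transcripts define the dividing members, so their levels are a description of the larger dividing share.

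Dividing members were deeper and held less of the pDC program in both libraries. Their median depth was 9525 UMIs in KO and 8046.5 in WT against 4002 and 3648.5 for the others, so they contributed 44.7% of the KO and 27.5% of the WT gate's UMIs. The pDC identity list, without the gate genes Siglech and Bst2, summed to 10537 CPM in dividing and 22233 CPM in other KO members. In WT the sums were 11005 and 23108 CPM. Ccr9 was at 95.3 against 985 CPM in KO and 177 against 1038 CPM in WT. Klk1 was at 17.2 against 428 CPM in KO and 105 against 610 CPM in WT. Irf8, which acts from the progenitor stage on, differed less, at 2801 against 4267 CPM in KO and 2832 against 4320 CPM in WT. Ly6d, an antigen of lymphoid-primed progenitors, was close at 1603 against 1533 CPM in KO and 1636 against 1541 CPM in WT. Myb, a progenitor transcription factor, was higher in dividing members, at 328 against 152 CPM in KO and 293 against 123 CPM in WT. The share of barcodes rich in S100a9 was alike in dividing and other KO members (12.3% and 12.5%) and in WT (7.14% and 7.61%). The summed neutrophil markers were higher in dividing members, at 40204 against 28739 CPM in KO and 28806 against 18592 CPM in WT. Their granule gene Camp was at 7569 against 2686 CPM in KO and 5239 against 1139 CPM in WT. Doublet marks were on 12.3% and 13.1% in KO but on 28.6% and 11.4% in WT.

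Because the dividing share differed, each list was compared over the whole gate and over the 176 KO and 184 WT members below the division minimum. In the whole gate 211 genes (5.11%) were past 1.5-fold higher in KO and 129 (3.12%) past 1.5-fold lower. Below the minimum 76 of 2704 measured genes (2.81%) were higher and 54 (2.00%) lower. The minimum did not level the cell cycle lists. Below it the S phase list summed to 1261 CPM in KO and 877 CPM in WT. The G2 and M list summed to 2539 and 2153 CPM. Wording such as "without dividing barcodes" means below this minimum. The part of the remaining cell cycle RNA in the differences was not tested.

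The pDC identity genes were lower in the KO gate, and the difference was smaller without the dividing barcodes. Of 31 measured genes beside the gate genes, 28 lay below the WT level, with a median log2 ratio of -0.28. Past 1.5-fold lower were 4 (12.9%), against 3.12% of all measured genes, and none was past 1.5-fold higher. Those 4 were Klk1, Lag3, the phospholipid transfer protein Pltp and Cd4. Below the division minimum the median was -0.075 and no member was past 1.5-fold. Ccr9 then stood at 985 in KO and 1038 CPM in WT, a ratio of 0.949 (0.857 to 1.05), and Cox6a2 at 1084 and 1096 CPM, a ratio of 0.989 (0.896 to 1.09). Klk1 remained lower at 428 and 610 CPM, a ratio of 0.701 (0.606 to 0.810). Siglech, whose level the gate restricts, was at 1617 and 2321 CPM in the whole gate and at 2407 and 2873 CPM below the minimum. Plac8, a small cysteine-rich protein, was the list member highest in KO, at 2842 and 2277 CPM.

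**Figure D2:**
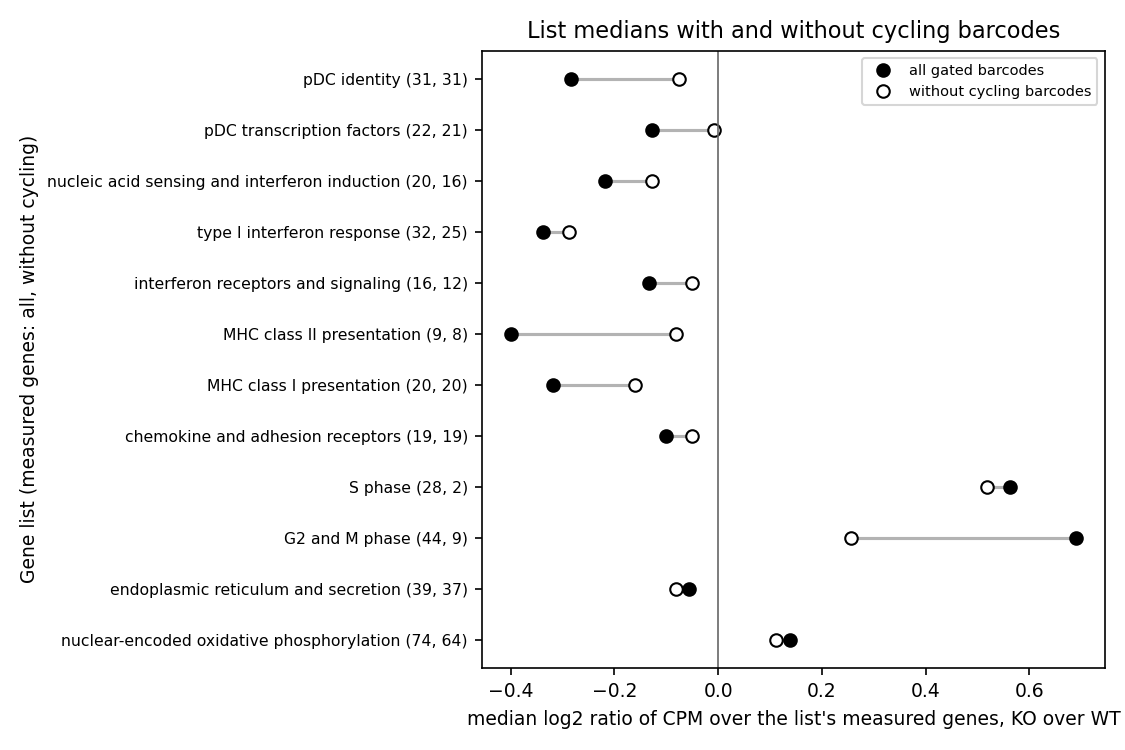
Median log2 ratio of CPM (KO over WT) over the measured genes of 12 lists, for all gated barcodes (filled) and without dividing ones (open), with the number of measured genes of each list in brackets. The identity and MHC class II medians move from -0.28 and -0.40 to -0.075 and -0.080, and the interferon median moves from -0.34 to -0.29.

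The lineage transcription factors were close between the libraries once dividing barcodes were set aside. Tcf4 was at 2336 in KO and 2972 CPM in WT over the whole gate, and at 3238 and 3547 CPM below the minimum, a ratio of 0.913 (0.864 to 0.965). Irf8 was at 3611 and 3911 CPM, then 4267 and 4320 CPM. Runx2 was at 1038 and 1088 CPM, then at 1238 CPM in both. Bcl11a moved from 918 and 1011 CPM to 1176 and 1158 CPM. Spib, an Ets factor, kept a lower KO level at 315 and 445 CPM, then 455 and 533 CPM. Over the whole gate, 3 of the 22 measured factors (13.6%) were past 1.5-fold lower in KO, against 3.12% of all measured genes. No factor was past 1.5-fold higher. The 3 were Stat2, Irf7 and Ikzf2, an Ikaros family member at 37.1 and 62.0 CPM. Stat2 and Irf7 also belong to the interferon response list described next. Among members below the minimum only Stat2, 1 of 21 measured factors (4.76%), was past 1.5-fold lower, against 2.00% of all genes. The median log2 ratio of the factors was then -0.0088.

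The type I interferon response genes were lower in KO with and without the dividing barcodes. Of 32 measured genes, 29 lay below the WT level and 8 (25%) were past 1.5-fold lower, against 3.12% of all measured genes; none was past 1.5-fold higher. The median log2 ratio was -0.34. Below the division minimum 25 genes were measured, the median was -0.29, and 4 were past 1.5-fold lower against 2.00% of all genes. Over the 18 alternative settings the median stayed between -0.41 and -0.28. Malat1, as above, and Neat1, another nuclear RNA (119 and 234 CPM), were also lower in KO, and their part in this was not tested. The direction was known from earlier results of these data, so the count is a description.

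A signal transducer of the interferon receptor was among the lowest. Stat2 (chr10:128270559-128292849), the subunit specific to type I and III interferon signaling, gave 139 UMIs or 97.2 CPM in KO and 188 UMIs or 194 CPM in WT, 2.00-fold lower in KO (1.60 to 2.51). Below the division minimum it was at 135 and 245 CPM, a ratio of 0.552 (0.430 to 0.707). Irf9, its DNA-binding partner, was at 125 and 150 CPM. The receptor chains lay on either side, with Ifnar1 at 134 and 169 CPM and Ifnar2 at 249 and 232 CPM. The 16 measured genes of the receptor pathway had a median log2 ratio of -0.13, with 1 gene (6.25%) past 1.5-fold in each direction. Over all measured genes the shares were 5.11% higher and 3.12% lower.

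Among the antiviral targets, Ifi44 was at 33.6 in KO and 74.4 CPM in WT, 2.22-fold lower in KO (1.52 to 3.27). Ifi27l2a, a mitochondrial interferon-induced protein, was at 651 and 1163 CPM, a ratio of 0.560 (0.513 to 0.611). It was at least as uneven in all other barcodes, at 501 and 974 CPM, and in B-lineage barcodes, at 497 and 1088 CPM. Stat2 was closer there, at 20.3 and 30.4 CPM in other barcodes and 23.2 and 35.0 CPM in B-lineage ones. The RNA helicase cofactor Helz2 was at 32.9 and 62.0 CPM and the schlafen gene Slfn5 at 104 and 159 CPM. Isg15, the ubiquitin-like modifier whose promoter is printed above, was under the minimum for measured genes with 35 and 53 UMIs, and was at 24.5 and 54.8 CPM. The list was not uniform: Ly6e was at 2091 and 2085 CPM, Epsti1 at 121 and 118 CPM and Ifitm3 at 129 and 125 CPM. Of the 8 genes past 1.5-fold lower, 7 had a promoter entry and 2 of those held the response element core; of the other 24, 20 had one and 5 held it.

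**Figure D3:**
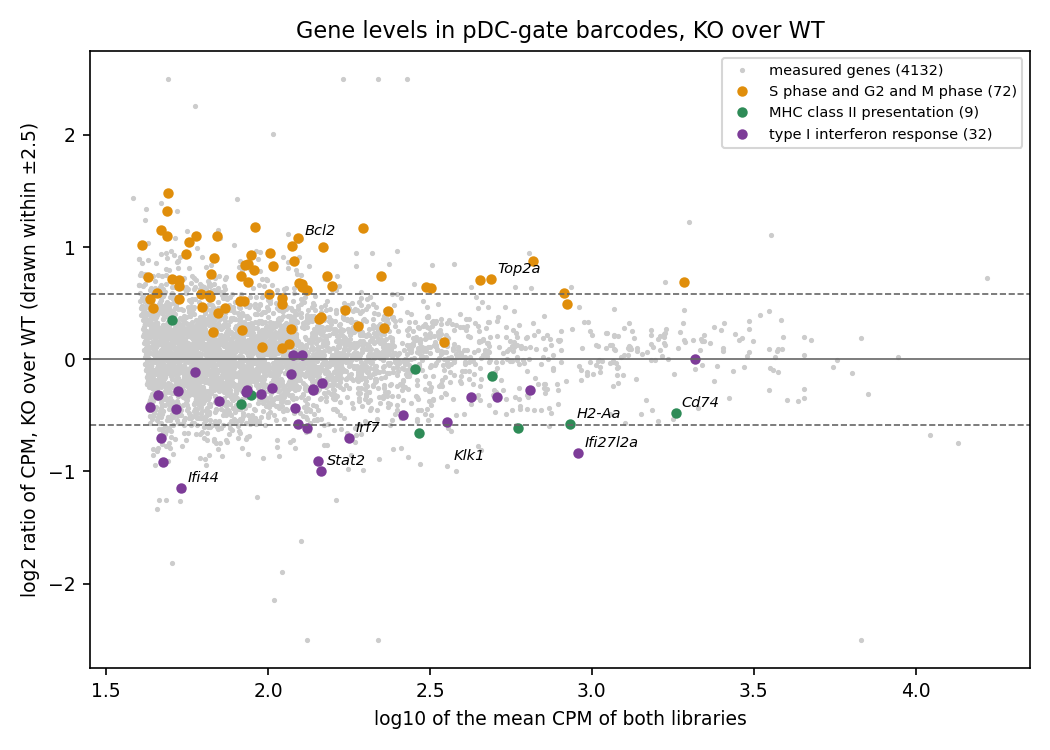
Log2 ratio of CPM (KO over WT) against log10 mean CPM for 4132 genes measured in the gated barcodes, with cell cycle genes in orange, MHC class II genes in green and interferon response genes in purple; dashed lines mark 1.5-fold and ratios beyond 2.5 are drawn at that value. Orange points all lie above 0, and 29 of 32 purple points lie below it.

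Counted per barcode, the interferon list took a median of 0.756% of a KO member's UMIs (0.172 to 2.89%) and 0.991% of a WT member's (0.118 to 3.72%). The KO distribution was lower from its 10th percentile (0.426% and 0.526%) to its 90th (1.23% and 1.58%), and the 2 overlapped widely. Among members below the division minimum the medians were 0.825% and 1.04%, and among dividing ones 0.546% and 0.614%. The same list was also lower in KO in other cells, at 0.595% and 0.684% in B-lineage barcodes and at 0.985% and 1.28% in monocyte barcodes, so the direction was shared by the 3 cell groups examined.

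**Figure D4:**
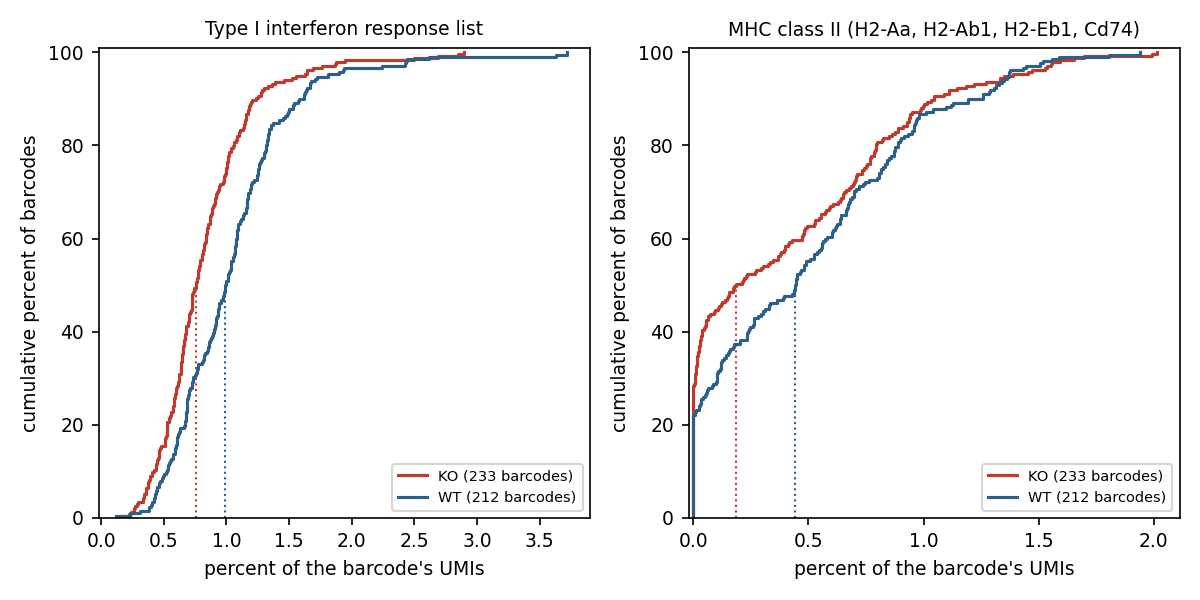
Cumulative percent of gated barcodes against the percent of a barcode's UMIs taken by the interferon response list (left) and by 4 MHC class II genes (right), for 233 KO (red) and 212 WT (blue) barcodes; dotted lines mark medians. The medians are 0.756% and 0.991% on the left and 0.186% and 0.444% on the right, where both curves start with barcodes at 0.

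Sensing genes that lead to interferon production were mostly lower in KO, with few past 1.5-fold. Of 20 measured genes, 16 lay below the WT level, with a median log2 ratio of -0.22. Below the division minimum 16 genes were measured and the median was -0.13. Tlr7, the endosomal receptor for single-stranded RNA, was at 67.8 in KO and 85.8 CPM in WT, a ratio of 0.790 (0.583 to 1.07). Tlr9, the receptor for unmethylated DNA, gave only 2 and 4 UMIs. Unc93b1, the chaperone that carries both to the endosome, was at 608 and 623 CPM, and Slc15a4, a transporter needed for their signaling, at 104 and 106 CPM. Irf7, which switches on the interferon genes and is itself an interferon target, was at 136 and 221 CPM, a ratio of 0.613 (0.502 to 0.748), and 0.717 (0.580 to 0.885) below the division minimum. The proteases that process the receptors were lower in KO, with Ctsl at 466 and 699 CPM and Ctsb at 949 and 1333 CPM. No UMI of Ifna1, Ifna2, Ifna4, Ifna5, Ifnb1, Ifnl2 or Ifnl3 was found in either gate, which allows up to 2.10 in KO and 3.1 CPM in WT. Of the 20 measured genes of this list, 1 (5%) was past 1.5-fold in each direction, Irf7 lower and the kinase Map3k7 higher. Over all measured genes the shares were 3.12% lower and 5.11% higher.

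Antigen presentation genes were lower in the KO gate, and less so without the dividing barcodes. The class II chains H2-Aa, H2-Ab1 and H2-Eb1 were at 690, 468 and 228 CPM in KO and at 1028, 714 and 359 CPM in WT. Below the division minimum their ratios were 0.848 (0.774 to 0.929), 0.810 (0.725 to 0.906) and 0.781 (0.665 to 0.916). The invariant chain Cd74 was at 1515 and 2111 CPM, then at 2545 and 2799 CPM. Dividing members held little of it, at 242 in KO and 297 CPM in WT. In the class I list, 14 of 20 measured genes lay below the WT level, among them the light chain B2m at 1811 and 2450 CPM. The peptide transporter Tap1 (188 and 181 CPM) and the immunoproteasome subunits Psmb8 (282 and 263 CPM) and Psmb9 (290 and 267 CPM) did not.

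Class II also set members apart from one another within each library. Among genes at least as high in the gate as in the rest, Cd74 had the largest ratio of variance to mean over thinned members after the RNA Gm42418, at 5.80 in KO and 4.70 in WT. After thinning to 2000 UMIs, members below the division minimum were split by their UMIs of H2-Aa, H2-Ab1, H2-Eb1 and Cd74. The limits were chosen after the values were seen. In KO, 47 of 171 (27.5%) had at most 1 UMI and 85 (49.7%) had 10 or more. In WT, 31 of 159 (19.5%) had at most 1 and 89 (56.0%) had 10 or more. Between the limits lay 39 members in each library, 22.8% in KO and 24.5% in WT. Members with at most 1 UMI still summed to 1968 CPM of the S phase list in KO and 677 CPM in WT. For the G2 and M list the sums were 3298 and 1919 CPM. In the other members of the split both lists were lower in KO.

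The same genes lay at the ends of this axis in KO and in WT. Klk1 was at 53.2 CPM in class II-low and 818 CPM in class II-high KO members, and at 161 and 921 CPM in WT. Cd4 was at 42.6 and 394 CPM in KO and 113 and 399 CPM in WT. P2ry14, a receptor for UDP-glucose, was at 106 and 335 CPM in KO and 80.6 and 433 CPM in WT. The class II-low levels of Klk1, Cd4 and P2ry14 rest on 5, 4 and 10 UMIs in KO and 10, 7 and 5 in WT. Intervals of the ratios are therefore wide, with KO high over low at 6.43 to 48.1 for Klk1 and 3.45 to 35.0 for Cd4. In the other direction, the intermediate filament gene Vim was at 606 CPM in low and 124 CPM in high KO members, and at 435 and 157 CPM in WT. The actin-binding Tmsb10 was at 3245 and 941 CPM in KO and 3371 and 1348 CPM in WT. Sox4, a factor of immature cells, was at 223 and 64.7 CPM in KO and 210 and 84.3 CPM in WT, and Cd7 at 564 and 265 CPM in KO and 629 and 287 CPM in WT. Tcf4 and Irf8 were close at both ends: Tcf4 was at 3191 and 3435 CPM in KO and 3613 and 3843 CPM in WT, and Irf8 at 4245 and 4735 CPM in KO and 4468 and 4904 CPM in WT. These genes were named for lying at the ends on the same side in both libraries, so their order is a description.

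**Figure D5:**
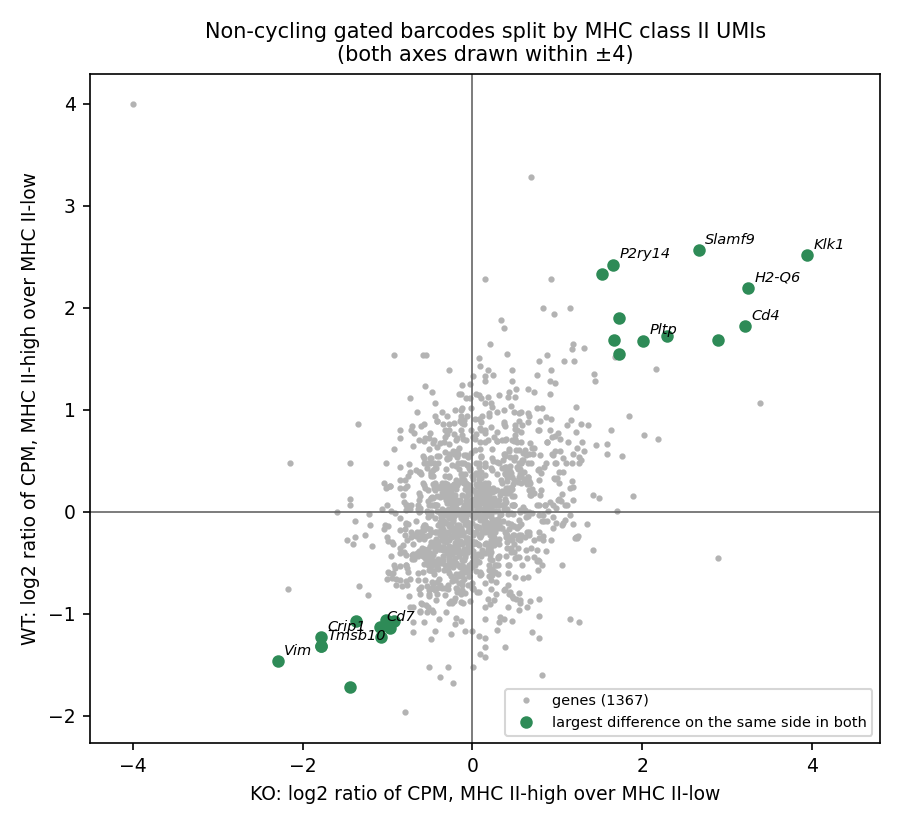
Log2 ratio of CPM in class II-high over class II-low members below the division minimum, KO on the horizontal and WT on the vertical axis. The 1367 genes shown had at least 60 thinned UMIs, and both axes stop at 4. Green points are the 12 genes at either end, with Klk1, Cd4 and Slamf9 at the upper right and Vim, Tmsb10 and Crip1 at the lower left in both libraries.

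Within the class II-high set, the identity list was level and parts of the interferon list were not. The identity list, here with the gate genes Siglech and Bst2, summed to 33071 in KO and 33281 CPM in WT. Siglech was at 3147 and 3169 CPM and Klk1 at 818 and 921 CPM, a ratio of 0.887 (0.703 to 1.12). Stat2 was at 100 and 258 CPM, from 17 and 46 UMIs, a ratio of 0.387 (0.208 to 0.688). Ifi27l2a was at 682 and 1354 CPM, a ratio of 0.504 (0.40 to 0.632). The interferon list as a whole summed to 12818 and 14781 CPM, gate gene Bst2 included, a ratio of 0.867. For the same list the ratio was nearer to equal in the other sets, at 0.944 in the class II-low set and 0.987 between the limits. In the class II-low set Stat2 was at 85.1 and 226 CPM, from 8 and 14 UMIs. There Ifi27l2a had a ratio of 0.778 (0.569 to 1.07) and Irf7, from 17 and 11 UMIs, one of 1.02 (0.450 to 2.41).

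Few genes were higher in KO among those at least as high in the gate as in the rest of the marrow. This is in part because that limit left out most cell cycle genes. It kept 1 of the 28 measured S phase genes and 2 of the 44 measured G2 and M phase genes. Before the limit, 12 and 32 genes of these lists were past 1.5-fold higher. Of 2621 genes within the limit, 24 were past 1.5-fold higher and 96 past 1.5-fold lower. Over all 4132 measured genes the numbers were 211 (5.11%) and 129 (3.12%). Below the division minimum 15 of 1756 such genes were higher and 35 lower. Over the whole gate the anti-apoptotic Bcl2 led the higher ones at 167 in KO and 80.6 CPM in WT, a ratio of 2.07 (1.60 to 2.71). Below the division minimum it had 40 and 21 UMIs, 50.6 and 29.9 CPM, a ratio of 1.69 (0.973 to 3.02). Next were Cnn3, an actin-binding calponin, at 61.5 and 32.0 CPM, and the zinc finger gene Zfp422 at 121 and 65.1 CPM. The lowest were Gpr155 (25.9 and 65.1 CPM), the G protein regulator Rgs1 (31.5 and 75.5 CPM), Vac14 (27.3 and 65.1 CPM) and the calcium channel Cacna1e (55.2 and 129 CPM). Below the division minimum the highest was Tspyl1 at 116 and 57 CPM, followed by the adaptor Fyb at 1052 and 547 CPM, and the lowest were Cacna1e and Stat2.

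Most receptors for traffic and growth had close levels. Flt3, the receptor whose ligand drives dendritic cell development, was at 309 and 324 CPM. Cxcr4, which retains cells in marrow, was at 398 and 411 CPM. Of 19 measured genes of this list 1 (5.26%) was past 1.5-fold higher, against 5.11% of all measured genes, and none lower. This was the integrin Itgam, at 120 in KO and 69.3 CPM in WT. It stood higher in the rest of the marrow, at 467 and 306 CPM. S100a6 was at 2790 and 1198 CPM in the gate and 12906 and 2755 CPM in the rest. Commd10 gave 82 and 7 UMIs, or 57.3 and 7.24 CPM, and was at 28.0 and 6.05 CPM in the rest.

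Of 74 measured nuclear genes of oxidative phosphorylation none was past 1.5-fold, with a median log2 ratio of 0.14. Of 39 genes of the secretory pathway, on which interferon release depends, 2 (5.13%) were past 1.5-fold lower, with a median of -0.057. Over all measured genes 5.11% were past 1.5-fold higher and 3.12% lower. The 11 lymphoid and B-lineage genes had 1 (9.09%) past 1.5-fold higher and 3 (27.3%) lower. Among them the light chain gene Iglc3 was at 254 CPM in the KO and 506 CPM in the WT gate, against 38.1 and 81.7 CPM in the rest, so its ratio was alike outside the gate. Ighm, the heavy chain that pDCs are known to transcribe, was at 1137 and 1250 CPM. Of 20 immediate early genes 1 (5%) was past 1.5-fold higher and 3 (15%) lower, with a median of -0.26. Among members below the division minimum 18 were measured, with 1 (5.56%) higher, none lower and a median of -0.054. Over all genes measured there, 2.81% were higher and 2.00% lower. In the whole gate Ier2 was at 172 and 81.7 CPM and the activation antigen Cd69 at 30.8 and 58.9 CPM.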

How the data were processed

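Droplet single-cell libraries were made from sorted CD45+ cells, 1 library a group with 3 mice pooled. The authors deposited raw UMI counts per gene and barcode; the file headers name Cell Ranger 3.1.0 for marrow and 6.0.2 for tumor, while the submitters' processing notes list mm10 (GRCm38), R 4.2.1, Seurat 4.3.0 and a later Cell Ranger, 6.1.2. From the deposited counts, features with the same symbol were summed and members' UMIs were summed per library and scaled to CPM of the members' total, so a few abundant genes, S100a8 among them, enter every level. Genes with 100 or more UMIs over both gates were called measured, and past 1.5-fold is a rule of size. Intervals are 95%: Clopper-Pearson for shares, exact conditional for ratios, Katz for ratios of shares, order statistics for medians. With mice pooled, they cover counting error only. A count of 0 allows up to 3 UMIs over the gate.

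The members and gene lists were chosen with earlier results of these data known. Named genes were the gate and marker genes, members of the identity, transcription factor, sensing and receptor lists, the 8 highest and 8 lowest ratios among genes with 50 or more CPM and at least the level of the rest (without mitochondrial, ribosomal, globin, antigen receptor, sex-linked and numbered predicted genes), up to 5 by ratio from each other list, up to 3 by level from each marker list of other cells, and the 20 highest over the rest; Isg15, Commd10, S100a6, Malat1 and the genes of the class II split were named after their values were seen. Scrublet (scanpy 1.11.5) with its automatic cut marked 0% of KO barcodes, so in both libraries the top scores up to the expected share were marked; doublets were kept, as the gate keeps them. Gene positions are from GENCODE vM21 and promoters from RefSeq (GRCm38.p6). The ratio step was tested on simulated data. Python 3.11.15 with numpy 2.4.6 and scipy 1.17.1 was used.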

Additional observations from a re-analysis of the deposited data

Results flagged for a closer look

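The tumor libraries were outside the comparison, and barcodes that passed the marrow gate were found in both. In the KO tumor 32 of 11413 kept barcodes passed, 0.280% (exact interval 0.192 to 0.396%), and in the WT tumor 226 of 11621, 1.94% (1.70 to 2.21%). The KO over WT ratio was 0.144 (0.0997 to 0.209), while in marrow it was 0.806. Among barcodes with under 3% S100a9 UMIs it was 0.171 in tumor and 1.28 in marrow. The difference between the tissues was not tested, with 1 library in each group, and the KO tumor held too few members for list medians. Gated tumor barcodes had median depths of 11231 and 9396.5 UMIs, deeper than in marrow.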

How the results depend on the processing

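Over 18 alternative settings (2 of them added after the data were seen), 811 values were recomputed. Of these, 726 stayed within a band around the value reported, 81 moved further, and 4 turned direction. The band was the counting interval, and for counts of genes 1.5 times. For list medians it ran between the medians of the single genes' interval ends. That is a wide band and not a counting interval of the median. For class II it spanned -0.70 to 0.024, so the move of the median from -0.40 to -0.080 counted as staying. A change of sign was counted as a turn only where this band did not include equal levels. In all, 29 log2 values of 11 results had the other sign, those of Ly6d, Runx2 and the calprotectin receptor list among them. No paired analysis was possible because each group is 1 library of pooled mice. Counts of genes past 1.5-fold (211 higher, 129 lower) were among those that moved. They were 469 and 296 at a minimum of 50 UMIs, 90 and 54 at 200 UMIs, 52 and 46 after thinning, and 76 and 54 without dividing members. They were 37 and 47 when dividing, doublet-marked and S100a9-rich members were all left out, and 37 and 32 when the rest after removing dividing members was thinned. Leaving out genes below the level of the rest gave 24 higher, and leaving out members with a UMI of chosen markers of other lineages gave 127 higher.

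The identity median was -0.075 without dividing members, -0.047 in the stricter added setting and 0.013, the other direction, in the thinned one. Cox6a2 turned to 0.031 and 0.15 in the 2 added settings and Irf8 to 0.029 in the thinned one. The G2 and M median was 0.26 without dividing members, 0.15 and 0.13 in the added settings and 0.28 without members holding markers of other lineages. The S phase median was 0.98 at 4 or more Siglech UMIs, 1.33 without the top 10% of members by UMIs and 0.11, from 1 gene, without genes below the rest. The interferon median stayed between -0.41 and -0.28, and the per-barcode ratio between 0.746 and 0.80. The cause of these moves was not tested. Depth limits single genes: at 35 and 53 UMIs the Isg15 ratio had an interval of 0.283 to 0.697.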
